A study of Taeniopygia guttata with 48 samples.

Results

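In the nucleus taenia of adult zebra finches, 43 genes had every female library above every male library. They were chosen by these measured values, from a deposited table of 17475 genes. The choice took the 13612 genes whose mean FPKM over 24 libraries was at least 1, and kept those whose lowest value among the 6 female libraries of that region was above the highest among the 6 male ones. FPKM counts fragments per kilobase of transcript, scaled to the mapped fragments of a library. The 43 members were 0.316% of the 13612 genes, which is the rule's own count and was not tested. The separation did not use the hypothalamus libraries, which show the same genes in other libraries.

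Eggs had received testosterone (500 pg in 5 µl of peanut oil) on the morning of laying, or the oil alone. The birds were sampled as adults, and the region was taken from frozen sections of 50 µm with a biopsy punch of 1 mm. Female control, female testosterone, male control and male testosterone birds each gave 3 RNA libraries per region, 24 in all. No strain, genotype or age beyond adulthood is in the labels, and all 8 groups share the injection itself. The labels do not say that each library came from its own bird, nor that the regions were taken from shared or separate birds. The p-values therefore describe spread between libraries, which may be partly technical. Libraries of the same replicate number in both regions deviated from their group means together in 10 of 12 pairs (r over 0.1 across all genes, -0.06 to 0.67, median 0.28; genes are not independent replicates). Across the 43 members the r of these pairs ran from -0.89 to 0.64, with a median of -0.03. The hypothalamus libraries are thus not shown to be independent of the nucleus taenia ones that chose the members.

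The nucleus taenia is regarded as part of the avian amygdala. It is connected with the hypothalamus and takes part in social and reproductive behaviour, and both regions hold cells with sex steroid receptors. Female birds deposit testosterone in the yolk, and experimental injection mimics that exposure before hatching. Male birds are ZZ and female birds ZW, and dosage compensation of the Z chromosome is incomplete in birds. The table gives Ensembl identifiers without symbols, and 0 of the 17475 were found in the RefSeq gene table at hand. The functions and chromosomes of the members are therefore not given, the region and sex labels could not be checked against marker genes, and members are described by their rank, from 1 for the greatest female minus male difference in nucleus taenia to 43 for the least. In tissue punches, fewer cells of a type and less RNA per cell cannot be told apart.

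From an earlier analysis of the same data, with its results known, a hypothalamus library was already seen to stand apart. It is labelled female testosterone hypothalamus replicate 3, and across genes its Pearson r with the other libraries averaged 0.757, where theirs averaged 0.844 to 0.915. The 0.844 was male testosterone nucleus taenia replicate 2, among the libraries that chose the members, and the next lowest was 0.885. In female testosterone hypothalamus replicate 3 the median FPKM was 7.03 against 10.3 to 12.02 elsewhere, and 14285 genes were above 0 in it against 14386 to 15152. The hypothalamus sex difference is given with and without it, as 12 and 11 libraries, and so are the members' medians and counts above 0 in the other hypothalamus comparisons that use it. Sequencing depth is not known from FPKM. A rough estimate of relative depth from the spacing of low values put the female testosterone libraries below the female control ones. In hypothalamus the estimates were 0.618 to 0.869 for testosterone and 1.14 to 1.39 for control females, and in nucleus taenia 0.779 to 0.918 and 0.980 to 1.08.

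The members spanned a wide range of levels, with mean FPKM over the 24 libraries from 1.202 to 615 and a median of 20.1, beside 22.1 for all 13612 genes. Of the 43, 9 had a mean under 10, 30 lay between 10 and 100, and 4 were at 100 or more. In nucleus taenia the female minus male difference of mean log2(FPKM + 1) had a median of 0.70 and ran from 0.32 to 3.96. It was at least 1 for 9 members, between 0.5 and 1 for 26 and under 0.5 for 8. These values restate the choice of the genes.

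Most members passed the rule narrowly. The ratio of the lowest female to the highest male FPKM had a median of 1.08, was under 1.1 for 26 members, reached at least 1.2 for 9 and was 2.02 at its highest. Just inside the rule stood a gene whose lowest female value was 19.6 FPKM and highest male value 19.5, a ratio of 1.0025. Just outside stood one with 57.9 against 58.0, a ratio of 0.9988. At the limit on level, the member of lowest mean had 1.202 FPKM and the nearest gene kept out had 0.463. No member was listed at 0 in all male libraries: 3 members were at 0 in any library, and 10 of the 1032 values of the members were 0. The same rule with the sexes exchanged kept 195 genes.

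**Figure D1:**
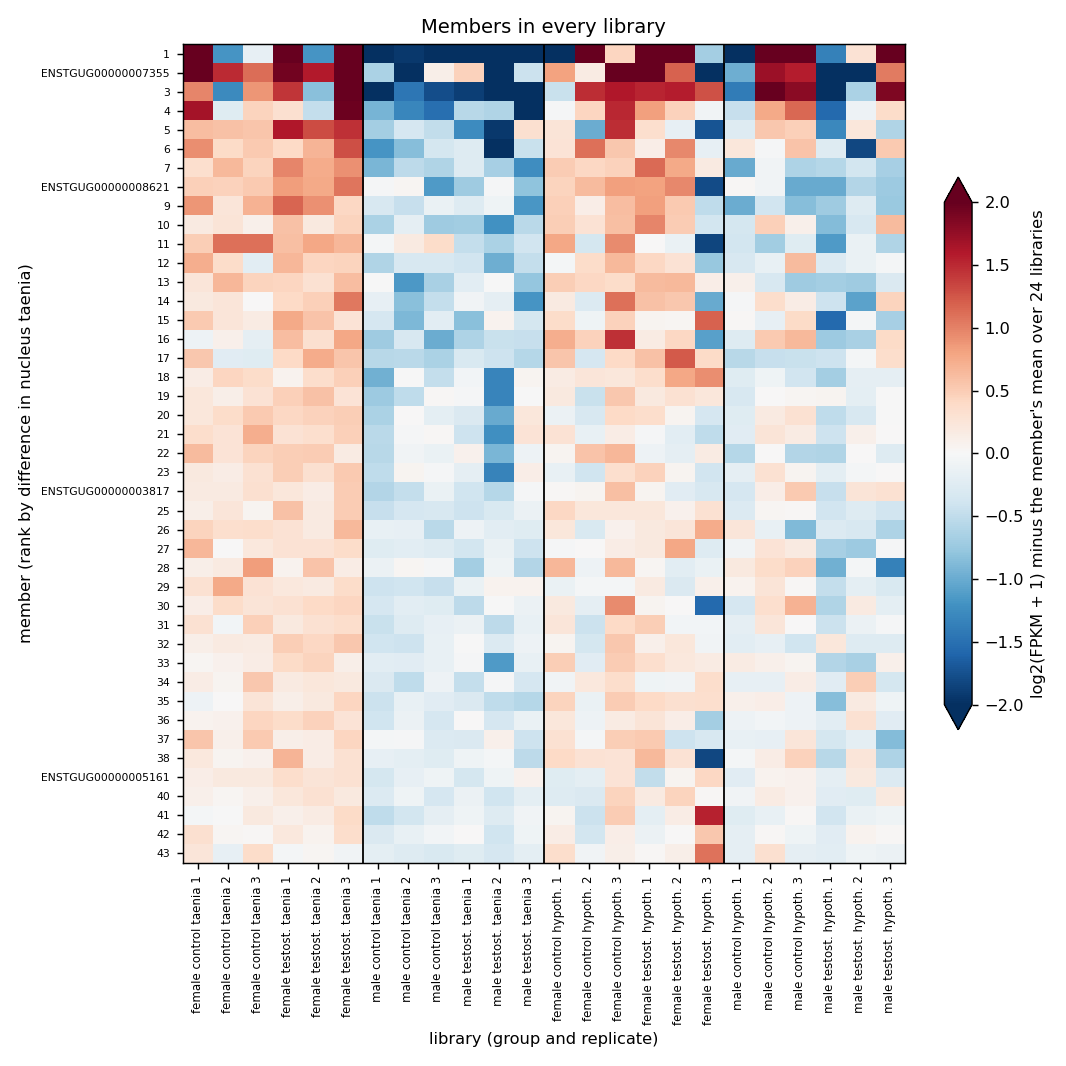
Each row is a member, ordered by its female minus male difference in nucleus taenia, and each column a library, with 6 female and 6 male libraries of nucleus taenia and then of hypothalamus. Colour is log2(FPKM + 1) minus the member's mean over the 24 libraries, limited to the range from -2 to 2 for display. The separation on the left is the rule itself, while on the right the sexes overlap for most members and female testosterone replicate 3 differs from the other female libraries in many rows.

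In the hypothalamus most members again had higher mean levels in females than in males, by smaller amounts, and few separated the sexes. Over all 12 libraries the female minus male difference was above 0 for 39 of the 43 members and below 0 for 4, where 49.6% of the 13569 genes tested were above 0. The median member difference was 0.35 on the log2(FPKM + 1) scale, with a range of -0.10 to 1.34, beside -0.00 for all genes. The difference was smaller than in nucleus taenia for 41 members, although the choice of genes selects high values in nucleus taenia. Limma called 0 of 43 members and 0 genes in all, or 0%, at an adjusted p of 0.05, and the smallest adjusted p of a member was 0.147. At an unadjusted p of 0.05, limma had 9 members higher in females, where 4.69% of genes were, and 0 members higher in males. Over all genes in limma 1347 had an unadjusted p under 0.05.

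Without female testosterone replicate 3 the difference was above 0 for 41 members and below 0 for 2, with 49.9% of the 13575 genes tested above 0. The median was 0.42, the range was -0.08 to 2.32, and 32 members had a greater difference than with the library. Limma called 3 members, all higher in females, where 93 genes in all passed, or 0.685%. Of those 93 genes 5 were higher in females and 88 in males, so 3 of the 5 called female-higher genes were members. At an unadjusted p of 0.05, 10 members were higher in females, where 4.65% of genes were. The 95% interval of a member's difference had a median half-width of 0.48.

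The separation that defined the members in nucleus taenia also held in hypothalamus for a few. Every female library was above every male library for 4 members over 12 libraries, where 23 of 13612 genes, or 0.169%, met that description. They ranked 7, 13, 18 and 25. Over 11 libraries it held for 6 members, where 45 genes, or 0.331%, met it, and the members added ranked 8 and 9.

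ENSTGUG00000008621, which ranked 8, had the lowest adjusted p of the 3 called members. Its hypothalamus FPKM was 17.6, 20.2 and 23.2 in female controls, 22.8, 25.6 and 2.96 in testosterone females, 12.8, 11.9 and 5.80 in male controls and 5.82, 8.06 and 7.26 in testosterone males. The value of 2.96, in female testosterone replicate 3, was below all 6 male values, and the other 5 female values were above all of them. With 12 libraries the female minus male difference was 0.88 (SE 0.43, limma adjusted p = 0.522). Over 11 libraries it was 1.32 (SE 0.21, limma adjusted p = 0.0247), and its 95% interval ran from 0.85 to 1.80. In nucleus taenia its FPKM lay between 17.8 and 27.5 in females and between 5.23 and 13.0 in males, apart by the rule.

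The member that ranked 7 was low in abundance. Its hypothalamus FPKM was 4.25, 3.93 and 4.101 in female controls, 7.10, 5.27 and 3.21 in testosterone females, 0.846, 2.52 and 1.43 in male controls and 1.498, 1.87 and 1.34 in testosterone males. Every female value, that of female testosterone replicate 3 included, was above every male one. The difference was 1.12 (SE 0.24, limma adjusted p = 0.147) with 12 libraries and 1.25 (SE 0.22, limma adjusted p = 0.0394) with 11.

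The third called member ranked 13. In hypothalamus it had 16.5, 15.6 and 15.0 FPKM in female controls, 18.3, 18.5 and 12.7 in testosterone females, 12.3, 8.92 and 6.598 in male controls and 6.78, 6.56 and 9.20 in testosterone males. The sexes did not overlap, although the lowest female value, in female testosterone replicate 3, was close to the highest male one. The difference was 0.88 (SE 0.20, limma adjusted p = 0.157) with 12 libraries and 0.97 (SE 0.18, limma adjusted p = 0.0492) with 11.

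All 3 calls depended on single libraries, and so did the count over all genes, which was 93 with the 11. A further library was left out in turn. Limma called 0 members without female control replicate 1 or 3 (44 and 35 genes in all) or female testosterone replicate 1 or 2 (0 and 60). It also called 0 without male control replicate 2 or 3 (0 and 12) or male testosterone replicate 1 (41). Without female control replicate 2 or male testosterone replicate 2 it called 1 member (101 and 67 genes). Without male control replicate 1 or male testosterone replicate 3 it called 2 (72 and 142). With the replicate number as a block limma called 0 members, where 30 genes in all were called. The limma adjusted p-values were then 0.0760 for ENSTGUG00000008621, 0.102 for rank 7 and 0.117 for rank 13.

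The next members by p-value did not pass with either set of libraries. Rank 9 had 1.93 to 3.70 FPKM in the 5 female libraries, 0.876 in female testosterone replicate 3 and 0.335 to 1.24 in males, and a difference over 11 libraries of 1.196 (SE 0.24, limma adjusted p = 0.0607). Rank 18 had 14.6 to 25.5 FPKM in the 6 females, with the highest value in female testosterone replicate 3, and 7.66 to 12.02 in males. Its difference was 0.74 (SE 0.18, limma adjusted p = 0.193) over 12 libraries and 0.68 (SE 0.16, limma adjusted p = 0.130) over 11.

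**Figure D2:**
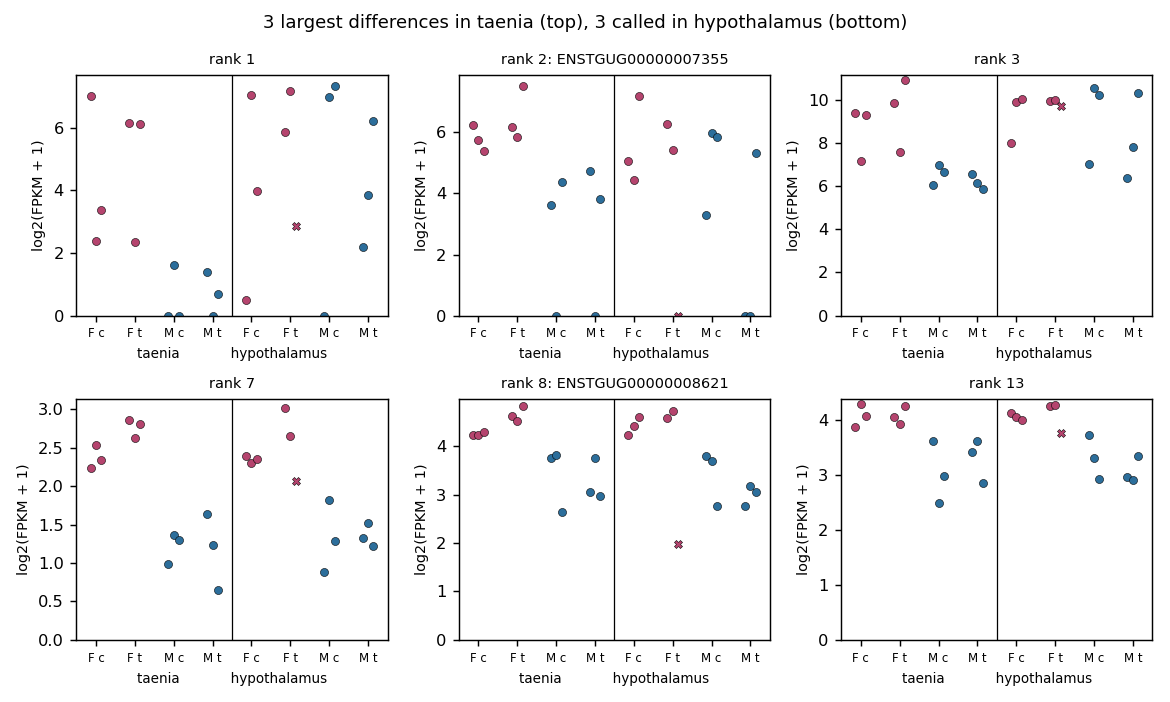
Points are log2(FPKM + 1) of single libraries for the members ranked 1 to 3 (top) and the 3 called in hypothalamus over 11 libraries (bottom). F and M are female and male, c and t control and testosterone, and the cross is female testosterone hypothalamus replicate 3. The top members vary widely within a hypothalamus group, while in the bottom row the 5 other female hypothalamus libraries lie above all 6 male ones.

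The 3 members with the greatest differences in nucleus taenia were the most variable ones in hypothalamus. A gene that varies widely between libraries can meet the rule only with a large difference, so this order may follow in part from the choice. The within-group SD of log2(FPKM + 1) over the 11 hypothalamus libraries had a median of 0.32 among members, beside 0.39 for all genes. It was at least 1 for 3 members, those ranked 1, 2 and 3, a share near the 7.37% of all genes. Rank 1 had hypothalamus values of 0.398, 131 and 14.7 FPKM in female controls, 56.8, 145 and 6.27 in testosterone females, 0, 124 and 161 in male controls and 3.59, 13.3 and 72.9 in testosterone males. High and low libraries occurred in both sexes and the sexes overlapped. In the nucleus taenia the same member lay between 4.15 and 130 FPKM in females and between 0 and 2.05 in males.

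ENSTGUG00000007355, which ranked 2, had the greatest hypothalamus difference without female testosterone replicate 3. Its hypothalamus FPKM was 32.8, 20.7 and 147 in female controls, 77.3, 42.5 and 0 in testosterone females, 8.79, 61.9 and 56.3 in male controls and 0, 0 and 38.7 in testosterone males. The 0 among females was female testosterone replicate 3, and the sexes overlapped with or without it. The difference was 1.34 (SE 1.25, limma adjusted p = 0.660) over 12 libraries and 2.32 (SE 1.02, limma adjusted p = 0.472) over 11.

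Rank 3 was the most abundant member. Its hypothalamus FPKM ran from 257 to 1065 in females, with 845 in female testosterone replicate 3, and from 81.8 to 1538 in males, so the sexes overlapped. In nucleus taenia it ran from 144 to 1964 in females and from 58.0 to 127 in males. Ranks 1 and 3 were both low in the same female nucleus taenia libraries, control replicate 2 and testosterone replicate 2, with 4.16 and 4.15 FPKM for rank 1 and 144 and 195 for rank 3.

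At the other end, 2 members had the lowest hypothalamus differences over 11 libraries. ENSTGUG00000005161 had 55.9, 57.7 and 80.5 FPKM in female controls, 47.1, 68.7 and 89.1 in testosterone females, 56.7, 69.5 and 70.2 in male controls and 58.4, 76.2 and 54.7 in testosterone males. The sexes overlapped, and the difference was -0.08 (SE 0.17, limma adjusted p = 0.895) over 11 libraries and 0.03 over 12, so its sign turned with the library. ENSTGUG00000003817 had 15.9 to 31.0 FPKM in female and 14.3 to 29.2 in male hypothalamus, with a difference of -0.00 (SE 0.22, limma adjusted p = 0.999) over 11 libraries. Its 95% interval, from -0.50 to 0.49, includes values as large as those of many other members.

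**Figure D3:**
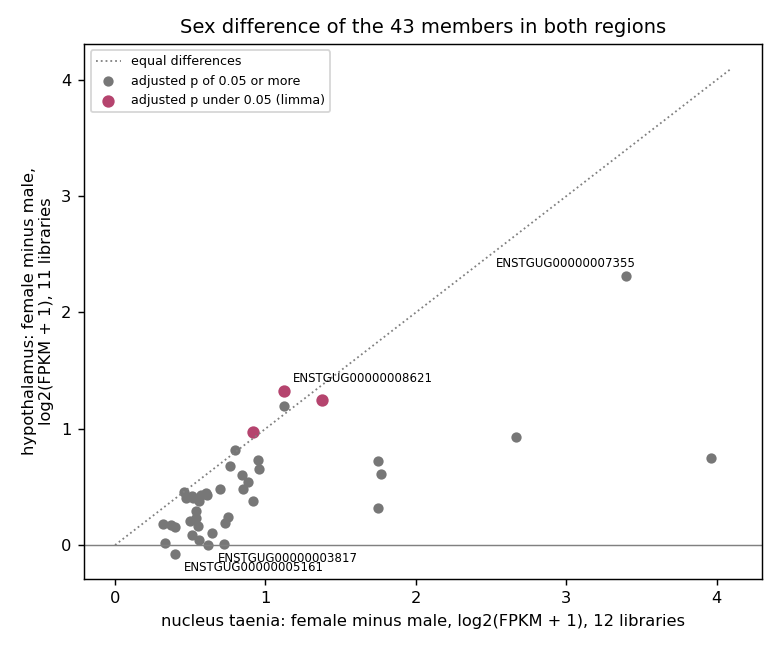
Each point is a member, with its female minus male difference in log2(FPKM + 1) in nucleus taenia on the x axis (12 libraries, the values that chose it) and in hypothalamus on the y axis (11 libraries, without female testosterone replicate 3). The dotted line marks equal differences. Most points lie above 0 and below that line, and the 3 members called by limma lie at 0.97 to 1.32 on the y axis.

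The library that stood apart was low for part of the members and high for others. Female testosterone replicate 3 was the lowest of the 6 female hypothalamus libraries for 20 members, beside 35.5% of all genes, and the highest for 7, beside 33.2%. It lay within the range of the 6 male libraries for 18 members (34.04% of all genes), below it for 10 (34.1%) and above it for 15 (31.9%). Of the members 2 were listed at 0 in it, beside 4.33% of all genes.

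A mean over the 43 members shows the libraries one by one. It is the mean log2(FPKM + 1) of the members in a library, minus the same mean over the 24 libraries. In nucleus taenia it ran from 0.19 to 0.68 in females and from -0.77 to -0.37 in males, apart as the rule requires. The -0.77 was male testosterone replicate 2, beside -0.56 for the next lowest male library. In hypothalamus the mean over members was 0.16, 0.10 and 0.60 in female controls and 0.41, 0.37 and -0.25 in testosterone females. It was -0.32, 0.23 and 0.19 in male controls and -0.69, -0.29 and -0.04 in testosterone males. The 5 female libraries other than female testosterone replicate 3 were above 0, and male control replicates 2 and 3 lay among them.

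**Figure D4:**
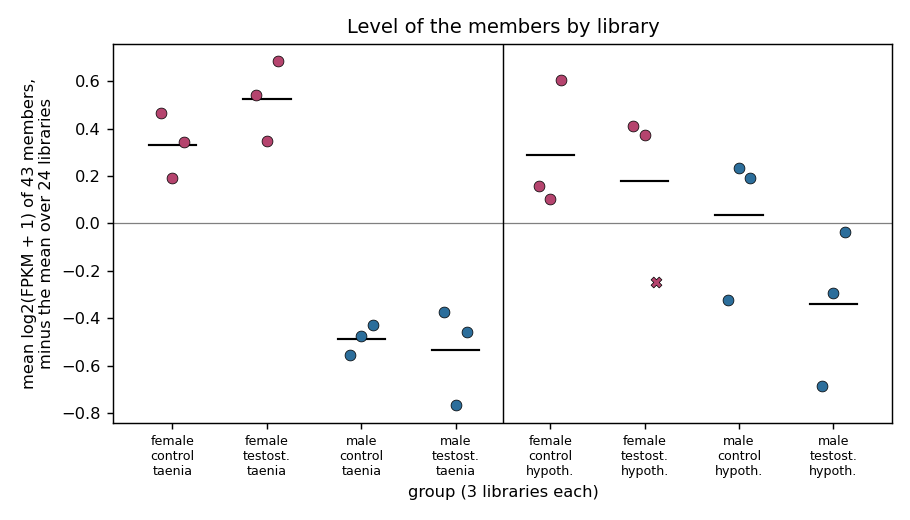
The y axis is the mean log2(FPKM + 1) of the 43 members in a library minus the mean over the 24 libraries, and each point is a library with its group on the x axis. Bars are group means of 3 libraries, and the cross is female testosterone hypothalamus replicate 3 at -0.25. The sexes are apart in nucleus taenia by the choice of members, and overlap in hypothalamus.

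Side by side, by mean FPKM, the male nucleus taenia was the lowest of the 4 combinations of sex and region for 37 members. The female nucleus taenia was the highest for 33, with female testosterone replicate 3 kept in the hypothalamus means. The female hypothalamus was highest for 9 members, and the male hypothalamus was lowest for 6 and highest for 1. The female nucleus taenia minus hypothalamus difference had a median of 0.17, beside 0.03 for all genes. It was above 0 for 34 members, beside 53.2% of genes. Without female testosterone replicate 3 these were 0.12 and 28, beside 0.03 and 53.9%. The male difference had a median of -0.18, beside 0.01 for all genes, and was above 0 for 6 members, beside 52.6% of genes. These orders follow in part from choosing genes by their nucleus taenia values, so they were not tested.

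The sex difference was above 0 for most members in both egg treatments. In nucleus taenia the median member difference was 0.62 among control and 0.75 among testosterone birds, as the rule fixes its direction. In the hypothalamus of control birds, which does not involve female testosterone replicate 3 except through the shared spread, the difference was above 0 for 35 members, where 48.4% of genes were, with a median of 0.18. Limma called 0 members and 0% of genes, and at an unadjusted p of 0.05 had 4 members higher in females, where 0.56% of genes were. In testosterone birds it was above 0 for 38 members, where 49.9% of genes were, with a median of 0.40, or 0.62, again with 38 above 0, without female testosterone replicate 3. Limma called 0 members and 0% of genes there, and at an unadjusted p of 0.05 had 7 members higher in females, where 6.93% of genes were. In control birds the median was 0.05 with 24 members above 0 without female control replicate 3, and was 0.08 with 27 above 0 without male control replicate 1.

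The study asks what testosterone in the egg does to adult brain expression, and for the members limma called 0 of 43 in every treatment comparison. In female nucleus taenia the testosterone minus control difference was above 0 for 32 members, where 53.5% of the 13551 genes tested were, with a median of 0.17 beside 0.03 for all genes and a range of -0.21 to 0.87. Limma called 0% of genes, the smallest adjusted p of a member was 0.969, and at an unadjusted p of 0.05 limma had 0 members higher with testosterone, where 1.67% of genes were, and 0 lower, where 1.28% were. This fit did not pair libraries by replicate number. Every testosterone library was above every control library for 9 members, where 8.1% of genes met that description, and below for 0, where 6.04% did. Those 9 were ranks 5, 7, 8, 14, 16, 23, 32, 39 and 40. The same libraries chose the members, and the rule favours genes with little spread within a sex. The shares of all genes are therefore not a like measure here. The estimated depth of these libraries was lower with testosterone than in controls, as given above, and its part in the result was not tested. The median was 0.10, with 27 of 41 members tested above 0, without female testosterone replicate 3 of this region, and 0.12 without female testosterone replicate 1 or female control replicate 2.

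Rank 5 had the greatest such difference. Its nucleus taenia FPKM was 8.01, 7.78 and 7.57 in female controls and 16.7, 13.4 and 15.1 in testosterone females, which did not overlap, for a difference of 0.87 (SE 0.46, limma adjusted p = 0.969). In hypothalamus the same gene had 6.01, 1.95 and 15.2 FPKM in female controls and 6.36, 4.20 and 0.759 in testosterone females, and the groups overlapped. Rank 16 had 0.970, 1.27 and 0.870 FPKM in female control and 2.25, 1.65 and 2.62 in female testosterone nucleus taenia, a difference of 0.63 (SE 0.31, limma adjusted p = 0.969). In female hypothalamus its values were 2.53, 1.93 and 4.82 in controls and 1.39, 1.82 and 0 with testosterone, the 0 being replicate 3, so that every testosterone value there was below every control value.

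In male nucleus taenia, whose libraries also chose the members, with the same limit, the members were divided. The testosterone minus control difference was above 0 for 21, where 51.9% of genes were, with a median of -0.01 and a range of -0.66 to 0.43. Without male testosterone replicate 1 it was above 0 for 14, and without male testosterone replicate 2 for 26, with a median of 0.10. Limma called 0% of genes, and at an unadjusted p of 0.05 had 0 members higher, where 1.71% of genes were, and 1 lower, where 1.08% were. Every testosterone library was above every control for 1 member, where 3.27% of genes were, and below for 1, where 2.37% were. The lower one, rank 11, had 21.7, 25.5 and 28.9 FPKM in male controls and 15.8, 14.1 and 17.0 with testosterone, a difference of -0.66 (SE 0.21, limma unadjusted p = 0.0105, adjusted p = 1). The higher one, rank 29, had 12.9, 13.1 and 12.5 FPKM in male controls and 15.9, 18.4 and 18.5 with testosterone (difference 0.43, SE 0.19, limma adjusted p = 1).

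In female hypothalamus 21 members had a difference above 0, where 50.7% of genes did, with a median of -0.02 and a range of -1.66 to 1.47. Without female testosterone replicate 3, 26 were above 0, the median was 0.09 and limma called 0 members, while 14 were above 0, with a median of -0.13, without female control replicate 2. Limma called 0% of genes, and at an unadjusted p of 0.05 had 0 members higher, where 1.75% of genes were, and 0 lower, where 3.39% were. Every testosterone library was above every control for 1 member, where 4.88% of genes were, and below for 1, where 4.52% were. The higher one, rank 18, had 14.6, 15.3 and 15.2 FPKM in female controls and 16.7, 22.8 and 25.5 with testosterone, a difference of 0.48 (SE 0.25, limma adjusted p = 0.664). The lower one was rank 16, described above.

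In male hypothalamus most members had lower means with testosterone. The difference was above 0 for 9 members and below 0 for 34, where 45.3% of genes were above 0, with a median of -0.25 beside -0.05 for all genes and a range of -3.26 to 0.45. Limma called 0% of genes, the smallest adjusted p of a member was 0.752, and at an unadjusted p of 0.05 limma had 0 members higher, where 2.84% of genes were, and 1 lower, where 3.3% were. Every testosterone library was above every control for 1 member, where 8.08% of genes were, and below for 3, where 8.68% were. The count moved with single libraries. Without male testosterone replicate 1, 15 members were above 0 and the median was -0.10, while 4 were above 0 without male testosterone replicate 2 and 5 without male control replicate 1. The median FPKM of a library was 10.3, 10.5 and 11.4 with testosterone and 11.6, 11.9 and 11.7 in controls. With median-ratio scaling 9 members were above 0, with a median of -0.22 beside -0.02 for all genes. With quantile normalization 10 were above 0, with a median of -0.17 beside 0.01. The part of level in this result was not tested beyond these scalings, and the part of depth was not tested.

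Rank 28 had the smallest p of the members in male hypothalamus. Its FPKM was 27.8, 31.1 and 33.4 in male controls and 11.9, 23.3 and 8.78 with testosterone, which did not overlap, for a difference of -1.13 (SE 0.34, limma unadjusted p = 0.00696, adjusted p = 0.752). Rank 29 had 18.5, 21.0 and 17.7 FPKM in male controls and 12.3, 15.2 and 14.1 with testosterone, a difference of -0.44 (SE 0.22, limma adjusted p = 0.832). In male nucleus taenia the same gene had the opposite order. The most negative fitted difference was -3.26 for ENSTGUG00000007355, which was listed at 0 in 2 of the testosterone libraries (SE 1.77, limma adjusted p = 0.859). The 95% interval of a member's treatment difference had a median half-width of 0.61 in nucleus taenia and 0.70 in hypothalamus, which is wider than the median member difference of each comparison.

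**Figure D5:**
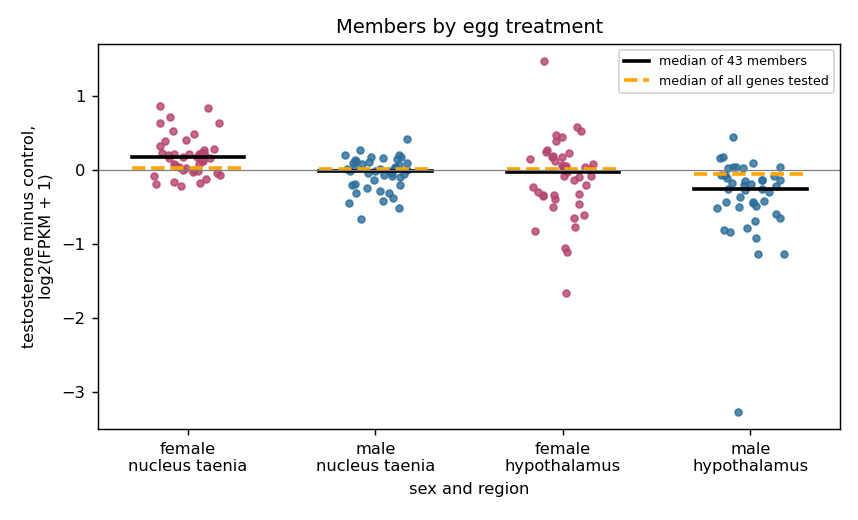
Each point is a member, the y axis is its testosterone minus control difference in log2(FPKM + 1), and the x axis gives the sex and region. Solid bars are medians of the 43 members (0.17, -0.01, -0.02 and -0.25 from left to right) and dashed bars medians of all genes tested. The points scatter on both sides of 0, most of them above it in female nucleus taenia and below it in male hypothalamus.

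The treatment difference was compared between the sexes as the female treatment difference minus the male one. For nucleus taenia it again rests on the libraries that chose the members. The share of all genes above 0 was not counted for this interaction, so the members' counts above 0 cannot be set beside it. In nucleus taenia the interaction was above 0 for 33 members, with a median of 0.19 beside 0.01 for all genes, and limma called 0 members and 0% of genes. At an unadjusted p of 0.05 limma had 1 member, where 3.9% of genes were. That member, rank 29, had 21.9, 30.2 and 21.5 FPKM in female controls and 20.3, 20.02 and 23.0 in testosterone females, beside the male values given above, for an interaction of -0.62 (SE 0.28, limma unadjusted p = 0.0457, adjusted p = 0.865). The nucleus taenia median was 0.08 with 27 above 0 without male testosterone replicate 2, 0.10 with 30 above 0 without male control replicate 3, and 0.12 without female testosterone replicate 1. In hypothalamus the interaction was above 0 for 30 members, with a median of 0.20 beside 0.00 for all genes, and limma called 0 members and 0% of genes, with 0 members at an unadjusted p of 0.05, where 2.97% of genes were. Without female testosterone replicate 3 it was above 0 for 35 members with a median of 0.39, and limma again called 0. The median was 0.33 without female control replicate 3, 0.13 without male control replicate 2 and 0.09, with 24 above 0, without female control replicate 2.

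The male-higher genes of the reversed rule separated the sexes in hypothalamus as well, in part. Of the 195 genes with every male nucleus taenia library above every female one, 182 had a hypothalamus difference below 0 over 12 libraries and 186 over 11. Of these genes 50 separated the sexes in hypothalamus over 12 libraries and 122 over 11. Among all genes 101, or 0.742%, had every male hypothalamus library above every female one over 12 libraries and 207, or 1.52%, over 11. The median hypothalamus difference of the male-higher genes was -0.69 over 12 libraries and -0.80 over 11, and their nucleus taenia median was -0.92. The difference between the lists was not tested.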

How the data were processed

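Stranded mRNA libraries of 2 brain regions were measured. The 24 methylation samples were not analysed here. The authors deposited FPKM for 17475 genes in 24 libraries. The submitters' processing notes list Cufflinks 2.2.1, TopHat2 2.1.1 and cutadapt 1.9.1. Settings, genome build and gene models were not given in the sources used here. In the table, 0 columns lacked a sample. FPKM loses the depth, and a few abundant genes can lower all others in a library.

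The members, and all lists, were chosen with earlier results of these data known. Marker and pathway lists could not be applied without symbols. 4 identifiers are printed, the 2 members with the greatest and the 2 with the least hypothalamus difference over 11 libraries. Others discussed were picked after their values were seen.

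With limma 3.58.1 (R 4.3.3), tests were made on log2(FPKM + 1), which understates changes of low genes. Genes with a mean of at least 1 FPKM over a fit's libraries were tested, with 1 mean per group of a region, variances moderated with a trend and p adjusted over all genes by Benjamini-Hochberg at 0.05. Over 11 libraries a sex difference is the mean of group means. The fit was also run on simulated hypothalamus data with independent noise for each gene and library and no library standing apart. That simulation therefore does not bear on the calls over 11 libraries. Relative depth came from the commonest ratio of FPKM values under 0.2 between libraries, and 35.1% of 276 library pairs were within 3% of it, so it is rough. The labels give no batch. Python 3.11.15 and matplotlib 3.10.9 were used.

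Replicate numbers are shared between groups. After subtraction of group means, libraries of the same number correlated, across all genes, with r = 0.171, 0.232 and 0.151 for treatment in female nucleus taenia, so these were taken as paired, from the data alone. The main fits did not use this pairing, and the replicate block was run only as an alternative. In the other comparisons within a region not all pairs were over 0.1. Alternatives were the pseudocount, the level filter, scaling, robust moderation, the libraries fitted, the replicate block and leaving out each library.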

Additional observations from a re-analysis of the deposited data

Results flagged for a closer look

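In groups of 6 libraries, the highest or lowest value was compared with the nearest other library for the 4 members printed by identifier and the mean over members, in 20 checks. The gap, as a share of the group's range, was above Dixon's 95% critical value in 3 of them. Chance gives about 1 in 20 for values not chosen beforehand, a rate that does not apply here because the genes were chosen by values in these same libraries. ENSTGUG00000008621 in female hypothalamus was 2.96 FPKM in the library labelled female testosterone replicate 3, and the next lowest was 17.6. ENSTGUG00000003817 in female hypothalamus was 31.0 FPKM in female control replicate 3, and the next highest was 20.9. ENSTGUG00000007355 in female nucleus taenia was 183 FPKM in female testosterone replicate 3, and the next highest was 75.7.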

How the results depend on the processing

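The count of 43 members was 44 with no level filter, 37 with a mean of at least 5 FPKM, 43 with median-ratio scaling (40 shared), 68 with quantile normalization (35 shared) and 9 where the lowest female had to be 1.2 times the highest male. Leaving out 1 library can only add genes and gave 48 to 221, with 221 without male testosterone replicate 3 and 133 without female control replicate 3. The sex difference in hypothalamus over 12 libraries was called by limma for 0 members. With all 24 libraries in the fit it was called for 2 members, where 96 of 13612 genes were called. That fit takes part of its spread from the libraries that chose the members. When a library was left out it was called for 0 to 3 members, with 3 without female testosterone replicate 3, where 93 genes were. Over 11 libraries the 3 calls became 4 with all 24 libraries in the fit (157 genes called in all, against 93). The same 3 members were called with a pseudocount of 5 or robust moderation (97 and 93 genes). With no filter the count was also 3 (83 genes), but not of the same members. The member that ranked 13 then had a limma adjusted p of 0.0742, and another member was called, with 0.0258. The calls were 2 with a pseudocount of 0.1, a mean of at least 5 FPKM or median-ratio scaling (89 to 105 genes). With the mean of at least 5 FPKM only 37 members were tested, and the member that ranked 7 was not among them. With quantile normalization 1 was called (79) and with the replicate block 0 (30). When a further library was left out 0 to 2 were called (0 to 142). The numbers are not shown to pair these libraries, and the block changed no other count of called members. In female nucleus taenia it gave 0 calls, also with only the 6 libraries (added after seeing the data). With only those 6, limma had 2 members higher with testosterone at an unadjusted p of 0.05, with or without the block. Of 13396 genes, 1123 passed that level in either direction with the block and 884 without it. Over all alternatives the adjusted p of ENSTGUG00000008621 over 11 libraries ran from 0.00373 to 0.112, below 0.05 in 12 of 20. Separation in hypothalamus held for 4 to 8 members over 12 libraries and 6 to 11 over 11 when a library was left out, the most without female control replicate 2. Leaving out a library can only add separated genes. The share of all genes was counted only for the 12 and 11 libraries, so the added members cannot be set beside it. ENSTGUG00000003817 changed sign over 12 libraries with quantile normalization (0.045) and ranged from -0.16 to 0.063 when a library was left out, and over 11 with quantile normalization (0.0076) and the replicate block (0.087), with -0.13 to 0.10. ENSTGUG00000005161 ranged from -0.081 to 0.15 over 12 and -0.21 to 0.053 over 11, and was 0.0040 with quantile normalization over 11. The causes were not tested. No treatment or interaction setting called a member. Absolute depth is not known, so no limit from depth is given.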
